A study of Sus scrofa with 12 samples.

Results

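De novo lipogenesis, the making of fatty acids from acetyl-CoA, was followed through the transcripts of its enzymes and regulators in Semimembranosus muscle of Italian Large White pigs. The set was chosen by gene symbol, with earlier results of these data known. Of 10 symbols looked for, 9 (ACACA, ACLY, FASN, SCD, ELOVL6, ME1, SREBF1, THRSP and MLXIPL) matched an Ensembl identifier in the count table, which listed 25880 genes, 20341 of them with at least 1 count. ACACB was not analysed here. All 9 genes passed the filter on low counts.

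The 12 pigs formed 2 groups of 6, pigs 1 to 6 with high and pigs 7 to 12 with low intramuscular fat (IMF) content. Each group was labelled as 3 gilts and 3 barrows (castrated males), all purebred, reared in one environment on one diet and slaughtered at 150 to 160 kg. The paper states that slaughter was spread over several days and that libraries shared sequencing lanes in pairs. Day and lane are not given per pig in the sources used here, and their part in the variation between pigs was not tested. Labelled ages ran from 234 to 244 days (median 243) in the high IMF group and from 229 to 249 days (median 237) in the low IMF group. Polyadenylated RNA of whole muscle was sequenced from each animal, with no treatment in either group, so that the groups are the extremes of a trait and not an intervention.

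In the pathway, cytosolic citrate is cleaved to acetyl-CoA by ATP citrate lyase, acetyl-CoA carboxylase turns it into malonyl-CoA, and fatty acid synthase joins these units into palmitate with NADPH that malic enzyme helps to supply. Palmitate is then lengthened by ELOVL6 and desaturated by stearoyl-CoA desaturase. In pigs most of this synthesis takes place in fat cells, and the muscle samples held both fibres and the fat cells lying between them. In such bulk RNA, fewer cells of a type and less RNA per cell cannot be told apart.

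Each library held between 131048805 and 178013997 counts, and the common biological coefficient of variation, the spread between pigs beyond counting error, was 0.332. Muscle identity was clear, since 4 myofibre markers (ACTA1, CKM, TNNT1 and TNNT3) together reached 29769 to 43673 CPM (counts scaled to library size) in the high and 31859 to 58532 CPM in the low IMF group, while identifiers for the other 5 of the 9 markers listed were not analysed here. Counts of the Y chromosome genes EIF1AY and KDM5D went against the labelled sex in 6 of 12 pigs, which were pigs 3 and 5 of the high and pigs 7, 8, 9 and 10 of the low IMF group. In either group 3 pigs had Y counts, at least 3734 against at most 6 elsewhere. Whether the IMF group labels of these animals hold was not tested, and every log2FC rests on those labels. The main results are also given without these 6 pigs, which leaves 4 high and 2 low IMF pigs and does not check the labels of the rest.

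The sequences just before 5 of the genes are shown because 4 of them, SCD, ELOVL6, THRSP and ACACA, had levels that ran closely together over the pigs, while SREBF1 did not run with them. They are the 250 bases before the annotated start of each gene, read 5′ to 3′ on the strand of the gene from the Sscrofa11.1 genome with RefSeq gene positions. These lie at chr14:111461310-111461559 for SCD, chr8:112038420-112038669 for ELOVL6, chr9:12479663-12479912 for THRSP, chr12:38875068-38875317 for ACACA and chr12:60733717-60733966 for SREBF1, all on the forward strand except ACACA. Capitals mark matches, on either strand, to the CCAAT box (CCAAT) and the GC box (GGGCGG).
SCD: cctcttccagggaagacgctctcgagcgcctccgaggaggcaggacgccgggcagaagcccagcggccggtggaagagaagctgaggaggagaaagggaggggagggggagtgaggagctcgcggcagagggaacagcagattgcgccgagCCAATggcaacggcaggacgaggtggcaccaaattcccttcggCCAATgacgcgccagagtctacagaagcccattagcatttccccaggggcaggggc
ELOVL6: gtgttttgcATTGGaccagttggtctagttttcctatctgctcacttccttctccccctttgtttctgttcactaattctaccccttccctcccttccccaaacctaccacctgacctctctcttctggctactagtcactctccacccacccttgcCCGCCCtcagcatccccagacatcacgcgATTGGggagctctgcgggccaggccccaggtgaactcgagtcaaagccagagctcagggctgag
THRSP: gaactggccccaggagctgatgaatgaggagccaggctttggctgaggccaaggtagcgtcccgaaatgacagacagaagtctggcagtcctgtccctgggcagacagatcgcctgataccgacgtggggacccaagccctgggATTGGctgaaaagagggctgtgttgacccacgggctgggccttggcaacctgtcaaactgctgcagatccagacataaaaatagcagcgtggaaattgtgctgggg
ACACA: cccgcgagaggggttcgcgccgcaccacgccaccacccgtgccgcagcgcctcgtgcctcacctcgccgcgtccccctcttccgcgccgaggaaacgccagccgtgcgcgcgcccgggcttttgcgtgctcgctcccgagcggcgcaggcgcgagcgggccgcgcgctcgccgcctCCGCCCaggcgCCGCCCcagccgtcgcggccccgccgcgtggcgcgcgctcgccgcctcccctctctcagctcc
SREBF1: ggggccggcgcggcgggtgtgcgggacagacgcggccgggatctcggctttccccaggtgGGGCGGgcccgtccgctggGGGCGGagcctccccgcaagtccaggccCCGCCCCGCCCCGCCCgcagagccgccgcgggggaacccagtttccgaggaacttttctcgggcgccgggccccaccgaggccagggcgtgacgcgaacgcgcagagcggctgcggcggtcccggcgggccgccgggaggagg

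Both CCAAT matches of SCD began close to the start, 99 and 56 bases before it, those of ELOVL6 lay 241 and 64 bases before it, and the match of THRSP lay 106 bases before it. ACACA held no CCAAT and 2 GC boxes, 74 and 63 bases before its start. SREBF1 held no CCAAT and 5 GC boxes, 3 of which overlapped each other by a base. Among all 9 genes the CCAAT box was found in 4 (also in ACLY) and the GC box in 5 (ACACA, ACLY, ELOVL6, ME1 and SREBF1), against 31.9% and 45.9% of 19556 windows of the same length before protein-coding genes. The sterol response element written as TCACNCCAC and the E-box CACGTG, letters of 2 sites that lipogenic factors bind, were in none of the 9 windows and in 0.803% and 6.39% of all windows. A match is a description of letters and not of binding.

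The genes that open the pathway did not separate the groups. ACLY (ENSSSCG00000017421, chr12:20796678-20841301), which cleaves citrate, was at 10.8 CPM at the lowest, 15.9 at the median and 30.7 at the highest in the high IMF group, and at 12.4, 15.6 and 18.6 CPM in the low IMF group. Pigs 5 and 6 of the high IMF group lay above every other animal, and the remaining high IMF pigs spanned the low IMF range. The log2FC, always given as low over high IMF, was -0.26 ± 0.24 (SE), with a 95% confidence interval from -0.78 to 0.26 and an adjusted P-value of 0.737 by the edgeR quasi-likelihood test over 14262 genes.

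ACACA (ENSSSCG00000017694, chr12:38580916-38875067, reverse strand), the carboxylase that makes malonyl-CoA for synthesis in the cytosol, spanned 11.4 to 31.7 CPM (median 20.5) in the high and 13.1 to 27.2 CPM (median 22.9) in the low IMF group. Pig 4 was the lowest and pig 6 the highest of all animals, both of the high IMF group, and pigs 7 and 10 were low in the other group. Its log2FC was -0.03 ± 0.25 (SE; edgeR adjusted P-value 0.981). The opposite strand of its locus holds C12H17orf78, whose reads cannot be told apart from it unless the counting used strand, which is not given in the sources used here.

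FASN (ENSSSCG00000029944, chr12:922405-937560), the synthase itself, reached from 9.43 to 48.1 CPM (median 38.8) in the high IMF group and from 15.0 to 78.9 CPM (median 44.8) in the low IMF group. Low IMF pigs 8, 9 and 12 stood above all high IMF pigs, whereas low IMF pigs 7, 10 and 11 stood below all of them except pig 4. The group means were 35.8 ± 13.7 (SD, n = 6) and 46.3 ± 28.2 CPM (SD, n = 6). FASN had the log2FC farthest above 0 of the 9 genes, 0.37 ± 0.44 (SE), and its edgeR adjusted P-value was 0.803.

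ME1 (ENSSSCG00000004454, chr1:82799878-82989895), the cytosolic malic enzyme, varied least. Its level lay between 20.1 and 29.1 CPM (median 26.4) in the high IMF group and between 20.2 and 36.4 CPM (median 25.4) in the low IMF group, with pig 8 alone at the top. The log2FC was 0.07 ± 0.14 (SE), with a 95% confidence interval from -0.22 to 0.36 that bounds any difference at between 0.860-fold and 1.29-fold (edgeR adjusted P-value 0.889).

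The enzymes that finish the fatty acid spread far more widely inside each group than between them. SCD (ENSSSCG00000010554, chr14:111461560-111478033), which puts in the double bond that makes oleate, ran from 24.9 to 159 CPM (median 74.8) in the high and from 21.1 to 112 CPM (median 84.7) in the low IMF group. ELOVL6 (ENSSSCG00000036236, chr8:112038670-112190079), the elongase from palmitate to stearate, ran from 4.99 to 32.9 CPM (median 15.0) and from 2.89 to 17.2 CPM (median 14.5). For both genes the 4 lowest animals were pigs 2 and 4 of the high and pigs 7 and 10 of the low IMF group, and pigs 5 and 6 of the high IMF group were the highest.

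The log2FC of SCD was -0.25 ± 0.51 (SE; edgeR adjusted P-value 0.898). That of ELOVL6, -0.45 ± 0.52 (SE; edgeR adjusted P-value 0.799), was the farthest below 0 of the 9, and its interval ran from -1.58 to 0.67. LOC110261988 overlaps ELOVL6 on the opposite strand, so its counts carry the same doubt as those of ACACA.

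SREBF1 (ENSSSCG00000033626, chr12:60733967-60750951) encodes SREBP-1, the sterol regulatory element binding factor that turns on lipogenic genes. Its level spanned 7.94 to 18.7 CPM (median 14.2) in the high and 8.15 to 22.2 CPM (median 15.7) in the low IMF group. It was lowest in pigs 3 and 12 and highest in pigs 8 and 2, and its log2FC was 0.12 ± 0.23 (SE; edgeR adjusted P-value 0.891).

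THRSP (ENSSSCG00000033822, chr9:12479913-12484323), a small protein induced by thyroid hormone and carbohydrate in tissues that make fat, covered the widest range of the 9 genes. It went from 0.872 to 13.1 CPM (median 3.92) in the high and from 0.636 to 7.58 CPM (median 5.29) in the low IMF group, a ratio of 20.5 between the highest and the lowest pig. The animals fell into 5 at or below 1.54 CPM (pigs 1, 2, 4, 7 and 10) and 7 at or above 4.53 CPM, and both sets held pigs of both groups. The log2FC was -0.14 ± 0.69 (SE; edgeR adjusted P-value 0.966), with an interval from -1.63 to 1.34.

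MLXIPL (ENSSSCG00000007710, chr3:10898675-10934257, reverse strand), the glucose-sensing factor ChREBP, was barely expressed, between 0.512 and 1.42 CPM (median 0.895) in the high and between 0.308 and 1.72 CPM (median 0.555) in the low IMF group. Even so each pig had between 47 and 293 counts of it. The top pig, 12, and the bottom pig, 9, were both of the low IMF group, and the log2FC was -0.30 ± 0.40 (SE; edgeR adjusted P-value 0.832).

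**Figure D1:**
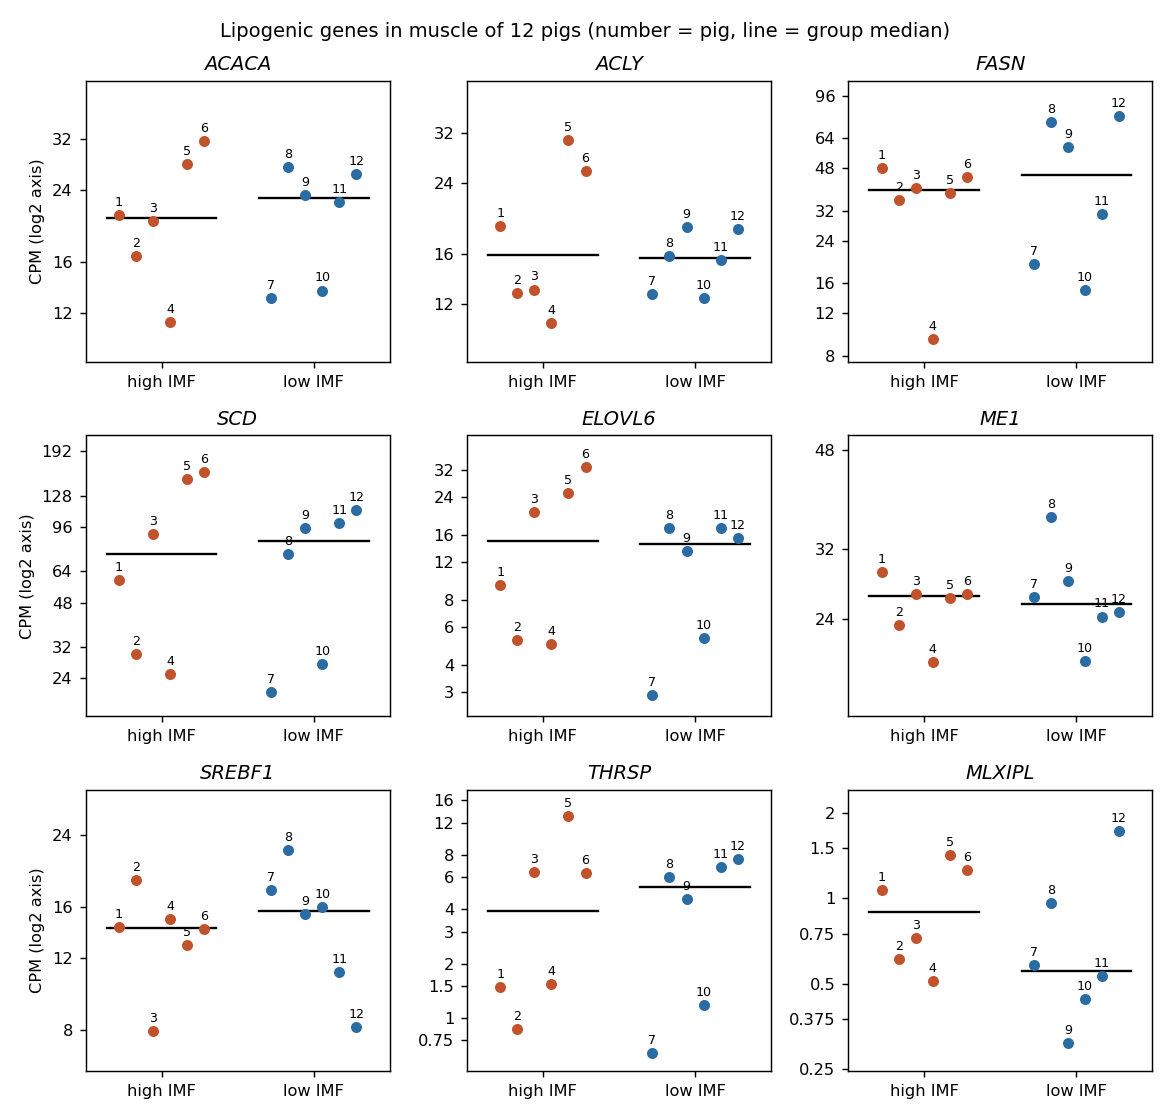
Level of each of the 9 genes in CPM on a log2 axis, by IMF group, where each point is a pig with its number and the line is the group median of 6 pigs. The groups overlap for every gene, and pigs 2, 4, 7 and 10 sit low for SCD and ELOVL6 whatever their group.

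Read together, 3 of the 9 genes were higher in the low and 6 in the high IMF group. Their median log2FC was -0.14 beside -0.01 over all 14262 genes tested. None reached an unadjusted P-value of 0.05, which 10.4% of all genes did (1486), and none overlapped so little that the groups parted, which 0.659% of all genes did. At an adjusted P-value no higher than 0.05 together with a log2FC of 0.58 or more in either direction, edgeR called 0 of 9 genes and 0.0% of all genes, DESeq2 called 0 of 9 and 58 of all genes on the same filter, and limma called none. Exact two-sided permutation tests of the difference in mean log2 CPM gave p between 0.325 and 1, where the smallest possible is 0.00216. The intervals were wide, and only those of ME1 and ACACA (-0.57 to 0.51) lay inside a log2FC of 0.58 in both directions.

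**Figure D2:**
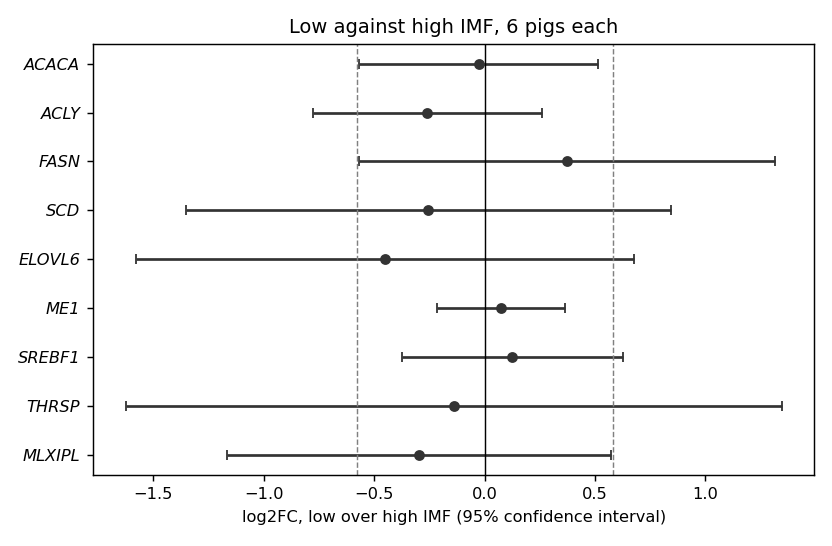
The log2FC of each gene, low over high IMF, with its 95% confidence interval from the edgeR fit on 6 pigs per group; dashed lines mark 0.58 in either direction. Every interval includes 0, and that of THRSP, from -1.63 to 1.34, is the widest.

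Leaving out the 6 pigs whose Y counts went against their label turned the sign of 8 of the 9 log2FC values, all but that of FASN. SREBF1 then had a log2FC of -0.68 ± 0.20 (SE), lower in the low IMF group, with an unadjusted P-value of 0.0115 and an edgeR adjusted P-value of 0.998, and 4.05% of all genes reached an unadjusted 0.05 in that fit. THRSP moved to 1.52 ± 0.71 (SE; edgeR adjusted P-value 0.998). In the same fit 10 of 12 adipocyte markers were higher in the low IMF group, with log2FC values of 1.07 for PLIN1 and 0.73 for LPL, both under an unadjusted 0.05, and of 1.33 for LEP, 0.72 for ADIPOQ and 0.65 for FABP4, and their part in the result was not tested. Such a fit rests on 2 low IMF animals, pigs 11 and 12, both of which had less SREBF1 than each of the 4 high IMF pigs kept. Pig 3 of the high IMF group, the lowest of all animals for SREBF1 at 7.94 CPM, was among those left out. The share of all genes that parted the kept pigs in this way was not computed.

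Levels were compared between genes per length. Per kilobase of annotated exon, the median over the 12 pigs was 13.8 CPM for SCD, 7.50 for ME1, 5.33 for THRSP, 4.84 for FASN, 3.53 for ACLY, 3.33 for SREBF1, 2.74 for ELOVL6, 1.80 for ACACA and 0.171 for MLXIPL. Each neighbour in this order overlapped the next in its range over the pigs, with the exception of ACACA (0.942 to 2.63) and MLXIPL (0.0789 to 0.440). SCD had the highest median, and MLXIPL was the one gene whose range lay apart from its neighbour.

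Variation between pigs was the main feature of these genes. The standard deviation of log2 CPM over the 12 pigs had a median of 0.74 over the 9 genes and of 0.33 over all genes tested, and it was above the latter in 8 of the 9. THRSP (1.45), ELOVL6 (1.09), SCD (1.04) and FASN (0.92) were more variable than 97.2%, 93.5%, 92.8% and 90.7% of the genes tested. ME1 (0.23) was more variable than 27.9% of them.

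The same animals were low or high for gene after gene. Pig 4 ranked among the 4 lowest for 7 of the 9 genes, pig 10 for 8, pig 7 for 6 and pig 2 for 6, whereas pigs 5 and 6 ranked among the 4 highest for 6 genes each. Mean rank over the 9 genes, counted from 1 for the lowest pig, was 2.56 for pig 4, 3.33 for pig 10 and 3.67 for pig 7, and 9.67 for pig 6 and 9.33 for pig 5. Pig 4 belonged to the same high IMF group as pigs 5 and 6.

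Pairwise, 29 of the 36 correlations of log2 CPM over the 12 pigs were positive, and 13 passed an adjusted P-value of 0.05 (permutation tests with 100000 resamples, Benjamini-Hochberg over the 36 pairs), all of them positive. By Spearman's rho 13 passed, 12 positive and 1 negative, of which 11 were the same pairs. The closest pair was SCD and ELOVL6, with r = 0.97 (rho = 0.90, adjusted permutation P-value of r 0.00018), r = 0.96 without the 2 pigs farthest from the median of SCD, and r = 0.99 and 0.96 within the high and the low IMF group. ACACA followed SCD almost as closely (r = 0.94, rho = 0.90, adjusted permutation P-value 0.00018), and ELOVL6 too (r = 0.91, rho = 0.84, adjusted permutation P-value 0.0005), and ACLY joined ACACA (r = 0.83, rho = 0.89, adjusted permutation P-value 0.0040) and SCD (r = 0.81, rho = 0.82, adjusted permutation P-value 0.0048). Without the 2 pigs farthest from the median of ACACA, r of ACACA was 0.91 with SCD, 0.88 with ELOVL6 and 0.78 with ACLY. Without the 2 pigs farthest from the median of ACLY, r of ACLY and SCD was 0.75.

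THRSP followed SCD with r = 0.93 (rho = 0.85) and ELOVL6 with r = 0.93 (rho = 0.83), each with an adjusted permutation P-value of 0.0005; r was 0.92 and 0.91 without the 2 pigs farthest from the median of SCD and of ELOVL6. Among the 7 pigs above the gap in THRSP, a choice that narrows its range, r was 0.56 with SCD and 0.44 with ELOVL6. FASN joined ACACA (r = 0.85, rho = 0.72, adjusted permutation P-value 0.0033, r = 0.71 without the 2 pigs farthest from the median of ACACA), ME1 (r = 0.76, rho = 0.73, adjusted permutation P-value 0.0147) and SCD (r = 0.71, rho = 0.57, adjusted permutation P-value 0.0268). Without the 2 pigs farthest from the median of FASN, a choice that narrows its range, the value for ME1 was 0.47 and that for SCD 0.53. Leaving out single pigs gave 0.67 to 0.87 for ME1 and 0.65 to 0.76 for SCD. Whether the lower values came from those pigs or from the narrower range was not tested.

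SREBF1 did not run with the enzymes. All 7 negative values among the 36 were pairs with SREBF1, from r = -0.51 with THRSP (rho = -0.76, permutation P-value of r 0.0892, adjusted 0.146, r = -0.41 without the 2 farthest pigs) to r = -0.15 with ACLY, and the one positive value was that with ME1 (r = 0.22). None passed the adjustment by r, and the pair with THRSP passed by rho (adjusted permutation P-value 0.0279). MLXIPL was positively related to the 7 genes other than SREBF1, with r between 0.33 and 0.62, and no pair passed the adjustment over 12 pigs.

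**Figure D3:**
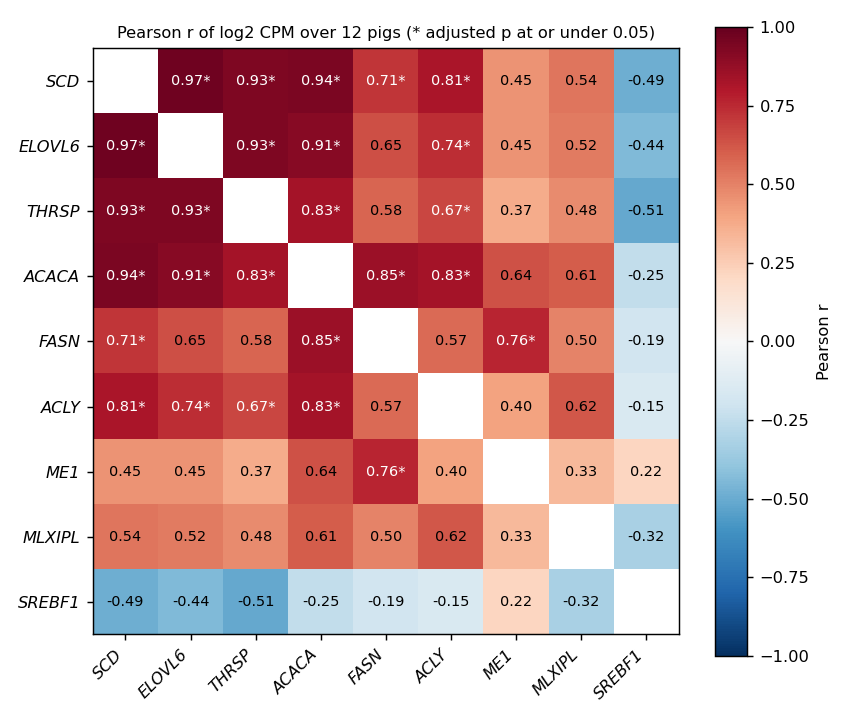
Pearson r of log2 CPM over 12 pigs for each of the 36 pairs of genes, with an asterisk where the adjusted permutation P-value is at or under 0.05. The block of SCD, ELOVL6, THRSP and ACACA holds values from 0.83 to 0.97, and the SREBF1 row holds negative values except for ME1.

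Without the 6 pigs whose Y counts went against their label, r of the 13 pairs stayed between 0.60 and 0.98, and 1 of the 36 pairs passed the adjustment with 6 animals (ACACA and SCD). With each group centred on its own mean, 14 pairs passed. Leaving out single pigs gave between 9 and 16 pairs, the lowest count without pig 4 and without pig 10.

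Markers of fat cells moved with most of these genes. The adipocyte list held 15 genes, of which 12 passed the filter: ADIPOQ (adiponectin), PLIN1 and CIDEC (lipid droplet coats), LEP, CFD, FABP4, PCK1, LIPE and PNPLA2 (lipases), PPARG, LPL and RBP4. Their mean, each gene standardised over the 12 pigs on the log2 CPM scale, ran from -0.85 to 0.52 in the high and from -0.91 to 1.20 in the low IMF group, with group means of -0.05 ± 0.50 and 0.05 ± 0.81 (SD, n = 6 each, exact two-sided permutation p = 0.788). The summed level of the 12 markers was 182 to 323 CPM in the high and 147 to 384 CPM in the low IMF group, so the ranges overlapped almost wholly.

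ADIPOQ alone spanned 19.9 to 78.3 CPM in the high and 8.40 to 76.9 CPM in the low IMF group, with the lowest values in pigs 10, 7 and 4. PLIN1 and CIDEC were lowest in the same pigs, but not all markers ran this way. PCK1 (0.838 CPM) and RBP4 (1.16 CPM) were highest of all animals in pig 10, and CFD (28.2 CPM) in pig 7. LPL, which muscle fibres also make, as they do PNPLA2, was the largest single part of the summed level in every pig. It reached up to 182 CPM in the high and 212 CPM in the low IMF group. Of the 12 markers, 0 reached an unadjusted P-value of 0.05 by edgeR, beside 10.4% of all genes, and 2 did (LPL and PLIN1) without the 6 pigs with contrary Y counts, beside 4.05%. With 12 pigs the log2FC values ran from -0.31 (PPARG) to 0.54 (LIPE), with 9 higher in the low IMF group.

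Against this marker mean, 7 of the 9 genes were correlated after adjustment over the 9 tests (permutation tests with 100000 resamples). The values were r = 0.84 for ACACA (rho = 0.83, adjusted permutation P-value 0.0040), 0.83 for FASN (rho = 0.71, adjusted 0.0040), 0.73 for THRSP (rho = 0.74, adjusted 0.0163), 0.71 for ELOVL6 and for SCD (rho = 0.74, adjusted 0.0163 for each), 0.70 for ME1 (rho = 0.43, adjusted 0.0163) and 0.69 for MLXIPL (rho = 0.73, adjusted 0.0184). By rho 7 genes passed too, with ACLY (adjusted permutation P-value 0.0476) in place of ME1 (0.182), and with each group centred on its own mean 8 passed by r. ACLY had r = 0.55 (rho = 0.62, adjusted permutation P-value of r 0.0701, r = 0.79 without the 2 farthest pigs) and SREBF1 r = -0.15 (rho = -0.31, adjusted permutation P-value 0.635). Without the 2 pigs farthest from the median of the marker mean, r of the 7 genes lay between 0.62 and 0.89.

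**Figure D4:**
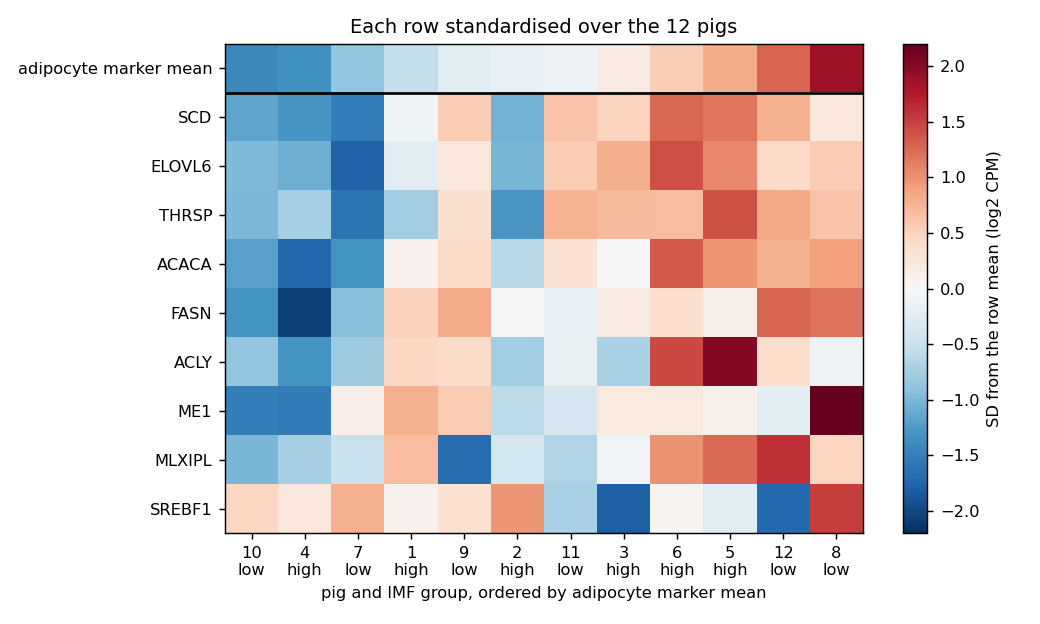
Adipocyte marker mean (top row) and the log2 CPM of the 9 genes, each row standardised over the 12 pigs in units of SD, with pigs ordered by the marker mean and their IMF group under the number. Pigs 10, 4 and 7 on the left are low in the rows from SCD to ACLY and those on the right mostly high, with pigs of both groups on either side.

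With the adipocyte marker mean as a second term in the edgeR fit, the standard error of the group difference of SCD went from 0.51 to 0.38 and that of FASN from 0.44 to 0.29, and no gene of the 9 reached an unadjusted P-value of 0.05 (10.1% of all genes did). The log2FC of FASN was then 0.10 and that of MLXIPL -0.48 ± 0.29 (SE). Without the 6 pigs with contrary Y counts, r with the marker mean lay between 0.44 and 0.88 for the 7 genes and none passed the adjustment.

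**Figure D5:**
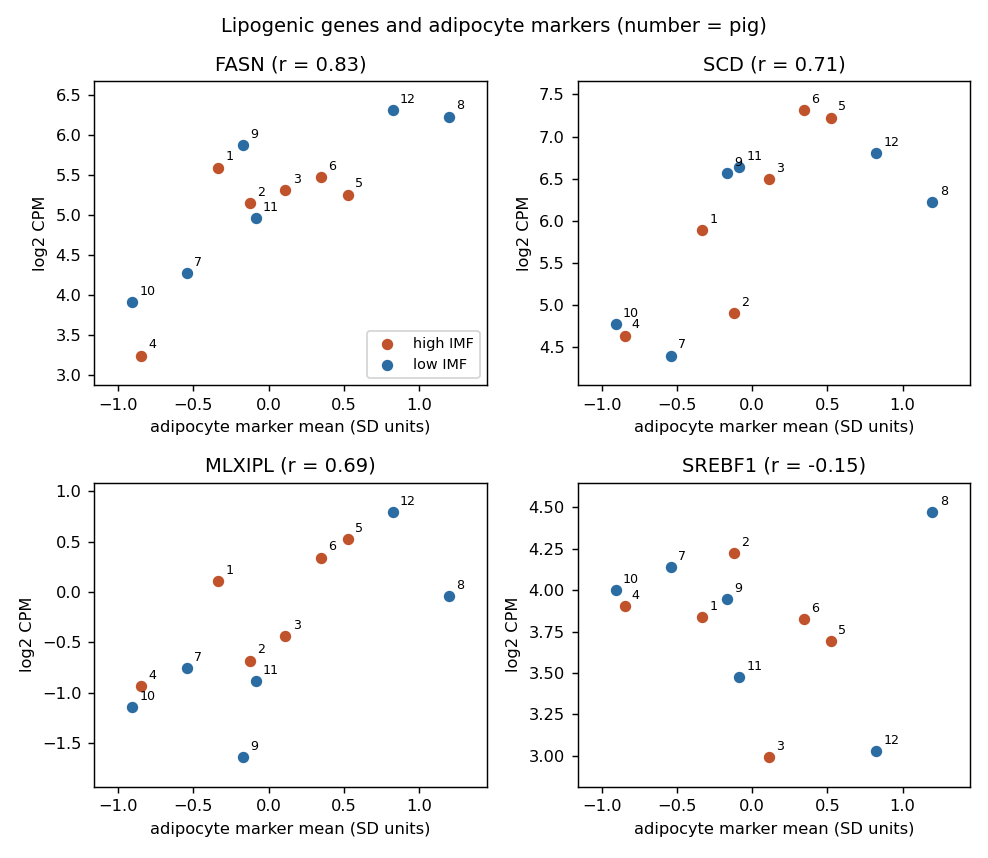
Log2 CPM of FASN, SCD, MLXIPL and SREBF1 against the adipocyte marker mean, each point a pig with its number, coloured by IMF group. FASN (r = 0.83), SCD (0.71) and MLXIPL (0.69) rise with the markers and SREBF1 (-0.15) does not.

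Transcripts of hepatocyte marker genes were also counted. The 6 hepatocyte markers tested, led by ALB, summed to 3.23 to 34.8 CPM in the high and 3.74 to 62.1 CPM in the low IMF group, with the highest sums in pigs 10, 9, 5 and 7. All 6 were higher in the low IMF group, with log2FC values from 0.20 to 1.98 and a median of 1.71. Of the 6, 0 reached an unadjusted P-value of 0.05 by edgeR, beside 10.4% of all genes. Of those 4 pigs, 5 and 9 were above and 7 and 10 below the median of SCD. APOC3 and TTR were at 0 CPM in 5 pigs each, while ALB and APOA1 were above 0 in every pig. The origin of these transcripts and their part in the results were not tested.

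The steps that feed the pathway with carbon and NADPH gave no gene under an unadjusted 0.05, with or without the 6 pigs. Of 14 genes tested, 0 reached an unadjusted P-value of 0.05 by edgeR, beside 10.4% of all genes, 6 were higher in the low and 8 in the high IMF group, and the median log2FC was -0.04. PDK4, which shuts pyruvate out of the mitochondrial acetyl-CoA pool, had the most counts, with 365 to 2319 CPM in the high and 1038 to 2988 CPM in the low IMF group and a log2FC of 0.49 ± 0.39 (SE; edgeR adjusted P-value 0.685).

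Of the other elongases and desaturases, 0 of 12 genes tested were at an unadjusted P-value of 0.05, beside 10.4% of all genes, with 3 higher in the low and 9 in the high IMF group, and a median log2FC of -0.08. HACD1, the dehydratase of the elongation cycle in muscle, had the most counts and a log2FC of -0.23 ± 0.18 (SE; edgeR adjusted P-value 0.664). Without the 6 pigs with contrary Y counts, 1 of the 12 was under an unadjusted 0.05, beside 4.05% of all genes. This was FADS1, the delta-5 desaturase, with a log2FC of 0.86 (edgeR adjusted P-value 0.998). The list's median SD of log2 CPM over the pigs was 0.34, beside 1.09 for ELOVL6 and 1.04 for SCD.

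Regulators of lipogenic transcription were the one list with several genes under an unadjusted 0.05, though none passed the adjustment. Of 19 genes tested, 6 were under an unadjusted 0.05 and higher in the low IMF group, as were 5.38% of all genes. Another 1 was under it and higher in the high IMF group, as were 5.04% of all genes. By direction alone, 11 of the 19 were higher in the low and 8 in the high IMF group. The median log2FC of the list was 0.06. MBTPS1, the site-1 protease that starts the release of SREBP from its membrane, was at 24.2 to 33.4 CPM in the high and 34.5 to 39.8 CPM in the low IMF group. These ranges did not overlap, as was so for 0.659% of all genes tested. Its log2FC was 0.38 ± 0.09 (SE), with an unadjusted P-value of 0.000717 and an edgeR adjusted P-value of 0.276.

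RXRA, the partner of the liver X and PPAR receptors, had the widest difference, 17.2 to 65.1 CPM (median 34.9) in the high against 40.2 to 110 CPM (median 75.1) in the low IMF group, with a log2FC of 0.92 ± 0.35 (SE; edgeR adjusted P-value 0.434). MLXIP, the paralogue of ChREBP known as MondoA and prominent in muscle, had the most counts of the list, at 66.5 to 143 CPM (median 85.2) against 102 to 208 CPM (median 152), and a log2FC of 0.70 ± 0.20 (SE; edgeR adjusted P-value 0.375). The log2FC values of USF2 (0.36, edgeR adjusted P-value 0.367), MED15 (0.36, 0.441) and NR1H2 (0.21, 0.441) were positive too. NFYA, a subunit of the factor that binds CCAAT, went the other way with -0.41 ± 0.18 (SE; edgeR adjusted P-value 0.452).

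In the fit without the 6 pigs, 3 of the 19 genes were under an unadjusted 0.05, beside 4.05% of all genes. These were RXRA with a log2FC of 1.47, MBTPS1 with 0.41 and NFYA with -0.55. MLXIP (0.34), USF2 (0.23), MED15 (0.18) and NR1H2 (0.14) were no longer under it. All edgeR adjusted P-values there were 0.998. With the adipocyte marker mean as a term, the 7 genes of 19 kept their side of an unadjusted 0.05, beside 10.1% of all genes under it.

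Among 11828 other named genes, those most like each gene over the 12 pigs were named by the highest Pearson r of log2 CPM, as a description. SCD was followed by MRAS (0.96), LRRTM4 (0.92) and MGST1 (0.90), and ELOVL6 by MGST1 (0.96), SDR16C5 (0.94) and LRRTM4 (0.92). The nearest to THRSP were PPP1R1B (0.96), MRAS (0.94) and SDR16C5 (0.93). Among the rest, ACACA was nearest to KRTCAP3 (0.90), DGAT2 (0.90), which adds the last acyl chain of triglyceride, and PRR5L (0.89), and FASN to KRTCAP3 (0.91), AFF4 (0.86) and CLHC1 (0.85).

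For ACLY the nearest were ASTE1 (0.90), IL13RA2 (0.89) and ENAH (0.88), for ME1 AFF4 (0.88), ZFHX4 (0.86) and PLCXD3 (0.82), and for MLXIPL RAB23 (0.86), MKS1 (0.85) and PIH1D2 (0.85). SREBF1 was nearest to ZKSCAN2 (0.91), EIF4EBP1 (0.86) and SLC45A4 (0.85). The nearest of SREBF1, and likewise those of ACLY and of MLXIPL, were not among the nearest of another gene of the set. An r of 0.97 placed ELOVL6 closer to SCD than every one of the 11828 genes, as did the r of 0.94 of SCD for ACACA.

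Markers of other cell types passed no adjusted test. Of the endothelial list, CDH5 was higher in the low IMF group (log2FC 0.55, edgeR adjusted P-value 0.383), and of the stromal and macrophage lists PDGFRA (-0.42, 0.441) and AIF1 (-0.46, 0.463) were lower, each under an unadjusted 0.05 and 1 gene of 4, 6 and 6 tested, beside 10.4% of all genes. Summed endothelial levels were 92.0 to 123 CPM in the high and 95.3 to 159 CPM in the low IMF group, stromal levels 1050 to 2153 and 1632 to 2610 CPM, and macrophage levels 55.3 to 123 and 64.7 to 113 CPM. Their part in the results was not tested.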

How the data were processed

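The authors made stranded libraries from polyadenylated muscle RNA, sequenced paired ends, trimmed the reads with Trimmomatic, aligned them to Sscrofa11.1 with HISAT2, built transcripts with StringTie and obtained counts per Ensembl gene from HTSeq. They deposited these counts as whole numbers, not normalized. The annotation release, the strand setting and the treatment of reads with several alignments are not given in the sources used here. The members and all gene lists were chosen with earlier results of these data known, and the genes named were all members, the genes of the other lists at an unadjusted P-value of 0.05 or with the most counts, all adipocyte markers tested, and the 3 named genes most like each member; FADS1 was added after its values were seen.

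Counts were paired with symbols by identifier (14857 genes had one), filtered with filterByExpr and scaled by TMM. Groups were compared with the quasi-likelihood test of edgeR 4.0.16 in R 4.3.3 on group alone, with Benjamini-Hochberg adjustment over 14262 genes; pigs are separate animals. CPM values use the TMM library sizes, and log2 CPM a prior count of 2. Correlations used permutation tests with 100000 resamples, and exact ones within subsets. DESeq2 1.42.0 and limma 3.58.1 were alternatives, as were other scalings, sex, age, Y counts or the adipocyte marker mean as terms, and leaving out pigs. Positions, exon lengths and sequences are from RefSeq on Sscrofa11.1, the build the authors used. Scripts were tested on simulated data. With 131048805 to 178013997 counts per pig, the spread between pigs far exceeds counting error.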

Additional observations from a re-analysis of the deposited data

Results flagged for a closer look

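Pig 4 stood apart from its group for FASN, and 1 of the 18 sets of 6 pigs examined (9 genes in 2 groups) gave such a result, where chance gives about 1 in 20. The gap between pig 4, at 9.43 CPM, and the next high IMF pig, at 35.4 CPM, was 0.811 of the whole range of the group on the log2 CPM scale. Pig 4 was also the lowest of its group for ACACA, ACLY, SCD, ELOVL6, ME1 and MLXIPL, and its adipocyte marker mean of -0.85 was the lowest of the high IMF group. Without it the log2FC of FASN was 0.17 (edgeR adjusted P-value 0.926).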

How the results depend on the processing

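Under every alternative run, 0 of the 9 genes passed the adjusted threshold. Over all genes DESeq2 called 58 on the same filter and 65 on all genes with a count, and leaving out a pig gave 0 to 1. Without the 6 pigs whose Y counts went against their label, 1 of the 9 genes (SREBF1) reached an unadjusted 0.05, 1 pair of genes was correlated and 0 genes were correlated with the adipocyte marker mean; these counts rest on 6 pigs, 2 of them low IMF. In that fit the log2FC was 0.29 for ACACA, 0.00295 for ACLY, 0.64 for SCD, 0.33 for ELOVL6, -0.0133 for ME1, -0.68 for SREBF1, 1.52 for THRSP and 0.39 for MLXIPL, each of the opposite sign to that with 12 pigs. limma-voom turned ACACA to 0.00308 and THRSP to 0.14, and age as a term turned FASN to -0.00641; the cause was not tested. Leaving out a pig gave log2FC values from -0.16 to 0.12 for ACACA, -0.36 to 0.43 for THRSP, -0.45 to 0.0158 for SCD, -0.0260 to 0.14 for ME1 and -0.00934 to 0.26 for SREBF1, with either sign, and kept the sign of the other 4 genes. It gave 9 to 16 correlated pairs and 6 to 7 genes correlated with the markers. The pair ACLY and THRSP lost its call in 10 of 16 alternatives, FASN and SCD in 5, ACLY and ELOVL6 in 4 and FASN and ME1 in 3. The correlation of ME1 with the markers lost its call in 5 of 17, among them without pig 8, at 0.51. No paired analysis was possible because the labels give the groups no shared numbers. The ratio of ACACA to ACACB was not run, since ACACB was not analysed here. The adipocyte marker term, and correlations without the 6 pigs, were added after seeing the data.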

Other observations

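Labelled age was set against the 9 genes after their values were seen, since the youngest pig (pig 12, 229 days) was high and the oldest (pig 7, 249 days) low for most of them. Pearson r of log2 CPM with age in days over the 12 pigs was negative for 8 of the 9 genes, from -0.51 for THRSP (rho = -0.51, permutation p = 0.091, adjusted over 9 tests 0.528) to -0.04 for ME1, and 0.15 for SREBF1. None passed the adjustment. The 2 pigs farthest from the median age were pigs 12 and 9 (229 and 232 days), both of the low IMF group. Without these 2 pigs, r was -0.44 for THRSP, -0.18 for ACACA (from -0.32), 0.03 for FASN (from -0.32) and -0.17 for SREBF1. Whether the changed signs of FASN and SREBF1 came from those pigs or from the narrower range of age was not tested.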
